A study of Rattus norvegicus with 3 samples.

Results

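The genes of autophagy and the lysosome were followed across 3 rat limb muscles. They were taken as a named list of 34 genes that cover the autophagosome from its initiation to its cargo and the lysosome that digests it, out of 15168 genes with a probe. Probes were joined to the names through their RefSeq accessions. This gave 41 probes for 33 of the 34 genes, with 7 genes on more than 1 probe, and no probe was joined to Atg4b. Gla, the lysosomal alpha-galactosidase, was not well above background on any array. The other 32 genes were well above background on all 3 arrays and are described below.

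Each array held total RNA of 1 muscle of male rats aged 12 weeks, of a background given as Wistar Honnover, labelled with Cy3. Denervated soleus was taken 28 days after about 5 mm of the left sciatic nerve had been cut out at the level of the buttock. The normal plantaris and the normal soleus came from rats that had no treatment, so no sham operation stands beside the nerve cut. RNA came from whole muscle tissue, so other cells of the muscle are included, and how many animals stand behind an array was not stated in the labels. There was 1 array per group, so there is no test and no spread between animals.

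Autophagy wraps cell contents in a double membrane, the autophagosome, and hands them to the lysosome for digestion. A kinase complex with Ulk1 starts the process, a lipid kinase complex with Pik3c3 and Becn1 marks the membrane, and 2 ubiquitin-like conjugation steps attach proteins of the ATG8 family (the LC3 and GABARAP proteins) to it. Receptors such as Sqstm1 and Bnip3 tie cargo to ATG8 proteins, and cathepsins and other acid hydrolases break it down. The transcription factor TFEB drives many lysosomal genes. In skeletal muscle the pathway is known for its part in protein breakdown and in the removal of mitochondria during wasting.

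Signals are given relative to the 75th percentile of the array they were measured on, called relative signal here. A gene is represented by its brightest probe, and levels are not compared between genes because probes differ in how well they bind. Folds are in log2 units, where 1 unit is 2-fold, and the error after ± is the scanner software's measurement error alone. It came to 0.20 for most of these folds. Repeat spots of a gene's probe agreed closely, the brighter of a gene's spots exceeding the dimmer by a median factor of 1.05 on each array. The widest gap was that of Atg12 on the normal soleus array, with a factor of 1.99.

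After denervation the pathway did not move as a block. Of the 32 genes 2 reached 2-fold on the high side, the cathepsins Ctsk and Ctsh, and 2 on the low side, the membrane-binding protein Wipi1 and the mitochondrial receptor Bnip3. The share among the members was 6.25% in each direction. Over all 11318 genes compared, 8.73% lay at or past 2-fold on the high side and 13.4% on the low side. Neither share of the members exceeded that of the whole array. Among the 10052 genes well above background on both arrays, as all 32 members were, the shares were 6.65% and 11.7%. The members' median was 0.16 and that of all genes 0.02, with quartiles of -0.09 and 0.44 for the members and of -0.51 and 0.46 for all genes. The denervated array lies on another slide and was scanned apart from the other arrays, so effects of the nerve cut and of slide or scan cannot be told apart.

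Between the normal muscles the members were closer still. No member was 2-fold apart in plantaris against soleus, where 5.71% of 11015 genes reached 2-fold on the high side and 6.11% on the low side (4.37% and 4.31% of the 10054 genes above background on both arrays). The members ran from -0.66 for Wipi1 to 0.77 for Map1lc3a with a median of -0.02, beside 0.02 for all genes. Both comparisons use the same normal soleus array, so a stray value there would enter both.

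**Figure D1:**
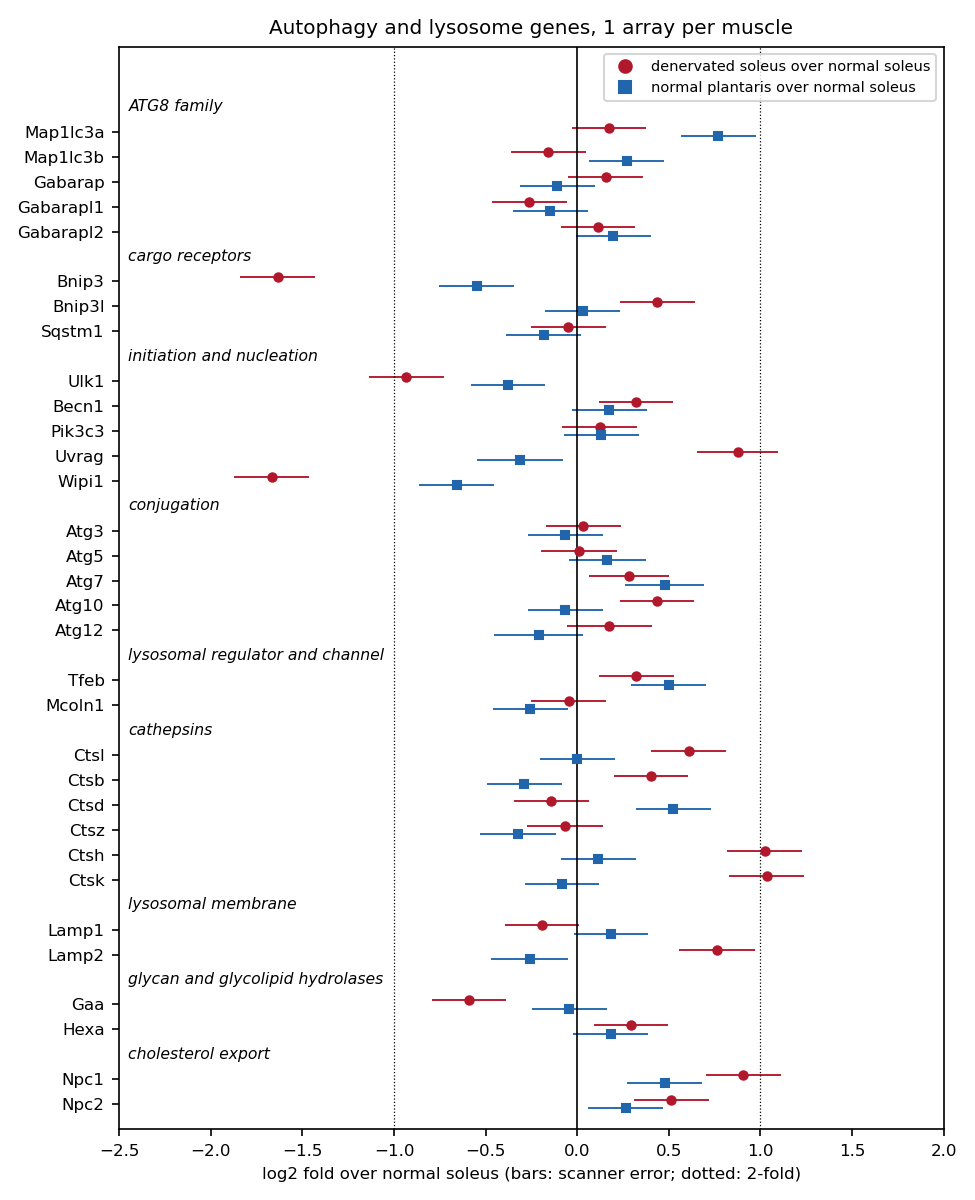
Log2 fold of each of the 32 measured genes, grouped by role, for denervated soleus over normal soleus (circles) and normal plantaris over normal soleus (squares). Bars are the scanner software's error and dotted lines mark 2-fold. Wipi1 and Bnip3 lie past the lower line and Ctsh and Ctsk just past the upper line, all 4 in the denervated soleus, and no square reaches either line.

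**Figure D2:**
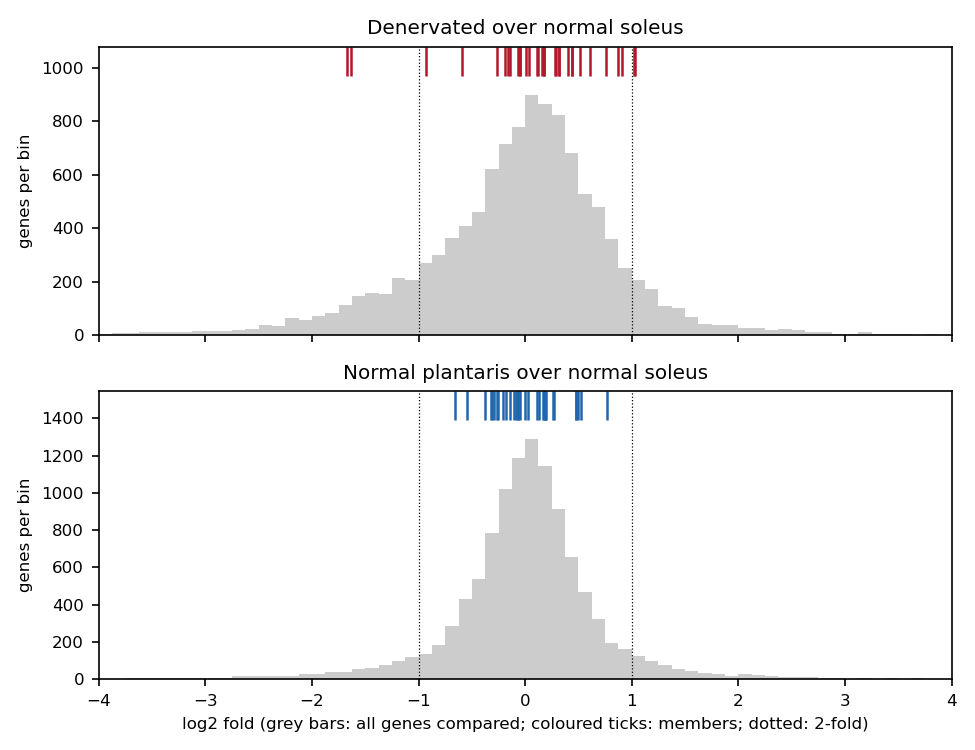
Histograms of the log2 folds of all genes compared (grey, genes per bin) with the 32 members as coloured ticks, above for denervated over normal soleus and below for normal plantaris over normal soleus. Folds beyond 4 in either direction are outside the axis. Most members sit in the middle of the grey distribution in both panels.

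The 5 ATG8 family genes, whose proteins coat the autophagosome membrane, differed little after denervation. Map1lc3a had a relative signal of 19.1 in denervated soleus, 28.9 in plantaris and 17.0 in normal soleus. It was the member that stood highest in plantaris, at 0.77 ± 0.20 over soleus, and all its spots there were brighter than those of both soleus arrays. In denervated soleus it stood at 0.17 ± 0.20. Map1lc3b had 11.4 in denervated soleus, 15.3 in plantaris and 12.7 in normal soleus, a fold of -0.16 ± 0.20 after denervation, and its second probe stood at 0.21. The GABARAP branch was as even. Gabarap had 22.9 in denervated soleus, 19.1 in plantaris and 20.6 in normal soleus, Gabarapl1 had 22.6, 24.5 and 27.1 in that order, and Gabarapl2 had 21.7, 23.0 and 20.0. The denervation folds of Gabarap and Gabarapl2 (0.15 and 0.11) were within the error. The 2 other Gabarapl2 probes stood at 0.13 and 0.03. That of Gabarapl1 was -0.26 on this probe and -0.61 on its other probe. Under quantile normalization all 5 stood above 0 in denervated soleus (0.08 for Gabarapl1 to 0.56 for Gabarap), so no direction is given for the family.

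Of the cargo receptors Bnip3 stood apart. Its protein sits in the outer mitochondrial membrane and ties mitochondria to the ATG8 proteins. The 2 spots read 24.8 and 25.1 in denervated soleus, 52.9 and 53.2 in plantaris, and 77.3 and 77.8 in normal soleus. The denervated level was thus 0.322 times that of normal soleus (-1.64 ± 0.20), lower than all but 5.6% of the genes compared. Plantaris stood between the other 2, at -0.55 ± 0.20 against soleus, and each step of the order was larger than the error. Its close relative Bnip3l, known from the clearing of mitochondria in maturing red blood cells, stood on the other side after denervation, with 8.26 in denervated soleus, 6.23 in plantaris and 6.11 in normal soleus (0.44 ± 0.20). Sqstm1, the p62 receptor for ubiquitin-tagged cargo, had 13.2 in denervated soleus, 12.0 in plantaris and 13.7 in normal soleus. Its denervation fold of -0.05 was within the error, and a dimmer probe for another transcript stood at 0.33.

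The initiation genes held the widest spread. Wipi1, which binds the lipid mark on the growing membrane, read 0.352 and 0.361 on its spots in denervated soleus, 0.700 and 0.739 in plantaris, and 1.11 and 1.16 in normal soleus. Denervated soleus was lower by the largest amount of any member, at -1.67 ± 0.20 or 0.315 times normal soleus, and plantaris stood at -0.66 ± 0.20. Ulk1, the kinase that starts the process, kept the same order of muscles. Its spots read 3.51 and 3.66 in denervated soleus, 5.23 and 5.29 in plantaris, and 6.66 and 7.02 in normal soleus. The denervation fold of -0.93 ± 0.20 lies just inside 2-fold, and the plantaris fold was -0.38 ± 0.20. Bnip3, Wipi1 and Ulk1 each had spots that did not overlap between any pair of arrays. The same held for Sqstm1 and Gabarap, whose denervation folds were within the error (-0.05 and 0.15), so it sets no gene apart. The share of all genes with such spots was not counted.

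Uvrag, a partner of Beclin 1 in the lipid kinase complex, ran against these. It had 0.198 in denervated soleus, 0.0871 in plantaris and 0.108 in normal soleus. The denervation fold was 0.87 ± 0.22 on this dim probe, and 0.47 with normexp background. Becn1 itself had 1.17 in denervated soleus, 1.06 in plantaris and 0.940 in normal soleus (0.32 ± 0.20 after denervation). Pik3c3, the lipid kinase, was level within the error in every pair of muscles, with 1.14, 1.15 and 1.05 in the same order.

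**Figure D3:**
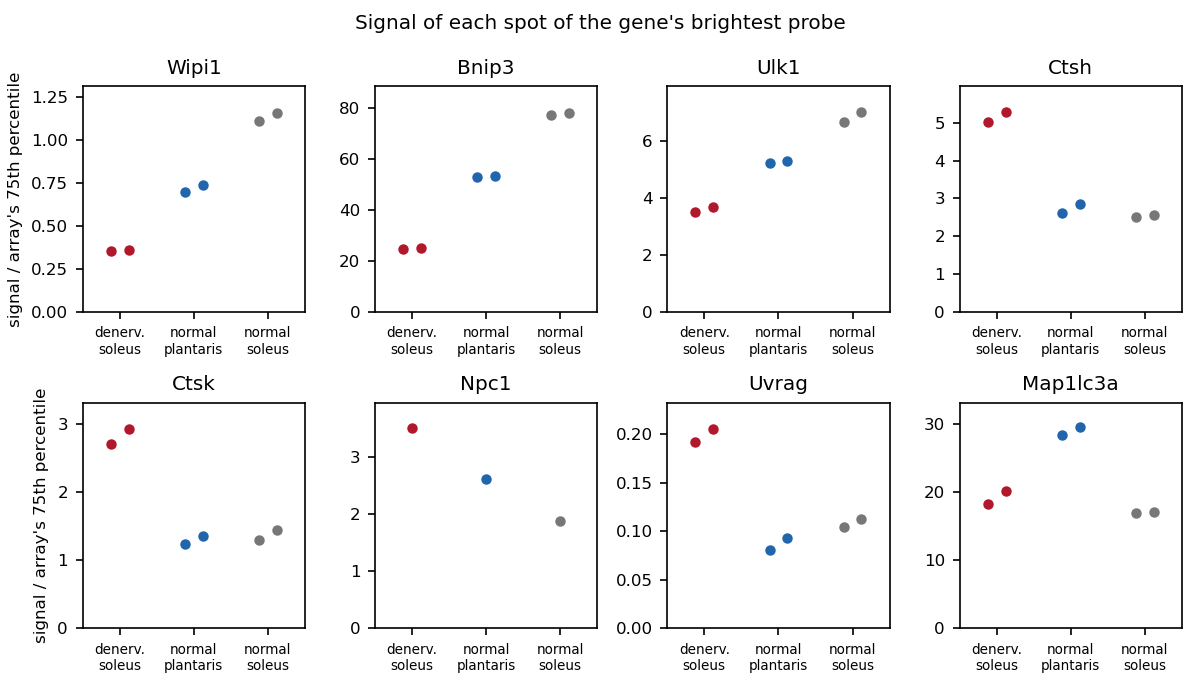
Relative signal of every spot of the brightest probe for 8 genes, in denervated soleus, normal plantaris and normal soleus, each axis starting at 0. Wipi1, Bnip3 and Ulk1 are lowest in denervated soleus, between in plantaris and highest in normal soleus. Ctsh, Ctsk and Uvrag are highest in denervated soleus, and Map1lc3a is highest in plantaris.

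After denervation all 5 measured conjugation genes stood within 0.44 of normal soleus. Atg3, which passes ATG8 proteins to the membrane lipid, was measured on 10 spots per array. They ran from 1.02 to 1.32 in denervated soleus, from 1.07 to 1.24 in plantaris and from 1.08 to 1.27 in normal soleus, overlapping throughout. Atg5 and Atg12, which form the conjugate that guides this step, differed by less than the error after denervation. Atg5 had 0.232 in denervated soleus, 0.259 in plantaris and 0.231 in normal soleus (0.01 ± 0.21), and its other probe stood at -0.18. Atg12 had 0.116, 0.0885 and 0.102 in that order (0.17 ± 0.23). Atg7, the enzyme that activates both conjugation routes, had 0.164 in denervated soleus, 0.188 in plantaris and 0.135 in normal soleus. Its plantaris fold of 0.48 ± 0.22 and its denervation fold of 0.28 ± 0.22 both exceeded the error, but the denervation fold was 0.14 with normexp background. Its spots in normal soleus read 0.115 and 0.158, further apart than the denervation fold. Atg10, which joins Atg12 to Atg5, had 1.51 in denervated soleus, 1.07 in plantaris and 1.12 in normal soleus. Its probes gave similar denervation folds of 0.44 and 0.40 but plantaris folds of -0.07 and -0.55.

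Tfeb and Mcoln1 stand for control of the lysosome. Tfeb had 0.855 in denervated soleus, 0.966 in plantaris and 0.684 in normal soleus. Both folds were above the error, 0.32 ± 0.20 after denervation and 0.50 ± 0.20 in plantaris. Mcoln1, the lysosomal calcium channel, had 2.04 in denervated soleus, 1.77 in plantaris and 2.11 in normal soleus, so that denervated and normal soleus did not differ beyond the error (-0.05).

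Of the 6 cathepsins 4 stood above 0 after denervation, where 51.2% of all genes did, and Ctsd and Ctsz stood below it. Their median was 0.50 and ran between 0.49 and 0.87 under the 8 other ways of processing. Ctsk, a collagen-cutting protease best known from bone-resorbing cells, read 2.70 and 2.93 in denervated soleus, 1.24 and 1.36 in plantaris, and 1.30 and 1.45 in normal soleus. Ctsh, an aminopeptidase, read 5.02 and 5.29 in denervated soleus, 2.63 and 2.86 in plantaris, and 2.51 and 2.56 in normal soleus. In both genes the denervated array stood alone and the normal muscles were level. The folds of 1.03 ± 0.20 and 1.02 ± 0.20 lie so near to 2-fold that the error spans the line, and both stayed at or above 1.01 in all 8 alternatives.

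The cysteine proteases Ctsl and Ctsb were higher by less. Ctsl had 13.7 in denervated soleus, 8.97 in plantaris and 8.96 in normal soleus (0.61 ± 0.20 after denervation). Ctsb had 41.9, 26.0 and 31.7 in that order (0.40 ± 0.20), with plantaris at -0.29 ± 0.20. The aspartic protease Ctsd differed between normal muscles instead. It had 30.1 in denervated soleus, 47.9 in plantaris and 33.3 in normal soleus, a plantaris fold of 0.52 ± 0.20 and a denervation fold of -0.14 that turned to 0.25 under quantile normalization. Ctsz, a carboxypeptidase, had 0.322 in denervated soleus, 0.269 in plantaris and 0.337 in normal soleus.

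Markers of fibroblasts, tendon and fat cells were also higher in denervated soleus. Of all genes 51.2% stood above 0 there. All 10 fibroblast and tendon markers stood above 0 after denervation (median 0.88, from 0.53 for Lum to 2.77 for Comp), and their summed relative signal was 398 in denervated soleus and 192 in normal soleus. All 5 measured fat cell markers did too (median 2.68, summed signal 67.7 and 15.4 in the same order). Of 13 macrophage markers 9 stood above 0 (69.2%) and 4 below it, from -0.92 for Cx3cr1 to 0.63 for Mrc1. None of the macrophage markers was 2-fold apart (median 0.26, summed signal 60.5 in denervated and 57.2 in normal soleus). The other fat cell markers gave no value, since Lep was not well above background and no probe was joined to Plin1. Each of the other markers was well above background on both arrays, and their part in the cathepsin values was not tested. In plantaris 6 of the 10 fibroblast and tendon markers stood above 0, where 52.1% of all genes did. Their median there was 0.35 and their summed signal 365, beside 192 in normal soleus, while Ctsk and Ctsh stood at -0.08 and 0.11. Of the fat cell markers 2 of 5 stood above 0 in plantaris (median -0.22), and of the macrophage markers 1 of 13 (median -0.56). In whole muscle, more cells of a type and more RNA per cell cannot be told apart, and the same holds for fewer cells and less RNA.

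The 2 lysosomal membrane glycoproteins parted. Lamp2 had 0.504 in denervated soleus, 0.248 in plantaris and 0.297 in normal soleus, a denervation fold of 0.76 ± 0.21 that was 0.47 with normexp background. Lamp1 had 5.20 in denervated soleus, 6.75 in plantaris and 5.94 in normal soleus, with folds within the error both ways. Among the sugar-cleaving enzymes Gaa, the acid glucosidase that digests glycogen in the lysosome and is deficient in human Pompe disease, was lower after denervation. It had 2.05 in denervated soleus, 2.99 in plantaris and 3.09 in normal soleus (-0.59 ± 0.20). Hexa, a hexosaminidase subunit, had 0.804 in denervated soleus, 0.744 in plantaris and 0.656 in normal soleus (0.29 ± 0.20).

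Npc1 and Npc2, which carry cholesterol out of the lysosome, were both higher after denervation. Npc1 had 3.51 in denervated soleus, 2.61 in plantaris and 1.87 in normal soleus, each on a single spot. Its denervation fold was 0.91 ± 0.20 here and 1.01 on its second probe, and its plantaris folds were 0.48 and 0.39. Npc2 had 1.97, 1.66 and 1.38 in that order (0.51 ± 0.20 after denervation and 0.26 ± 0.20 in plantaris). In both genes the order was denervated soleus, plantaris, normal soleus, and each step was larger than the error.

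Across the 3 arrays 15 members were highest in denervated soleus, 9 in plantaris and 8 in normal soleus. The commonest order, in 8 members, was denervated soleus over normal soleus over plantaris. Such orders were not counted over all genes, so no trait of the pathway is read from them. The order of Bnip3, Wipi1 and Ulk1, with normal soleus highest and denervated soleus lowest, was shared by 5 members, the others being Gabarapl1 and Gaa. Steps in the order were often within the error, as in Gabarap, Pik3c3, Atg3 and Atg5. In the reported setting 21 of the 32 members (65.6%) stood above 0 after denervation, beside 51.2% of all genes. In all settings tried 19 members kept a fold above 0 and 4 kept one below 0, namely Bnip3, Wipi1, Ulk1 and Gaa. The authors' values, among these settings, raise the median of all genes by 0.24, which favours folds above 0. The share of all genes that kept their sign was not counted.

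The promoters of these genes can be set beside their folds, since TFEB reads a lysosomal gene element with the core CACGTG. RefSeq promoters (build GRCr8, 250 bases before to 50 after the start site) matched 29 of the 34 genes. Map1lc3a, Bnip3l, Becn1, Ctsb and Hexa were not in the table. CACGTG, which reads the same on both strands, was present in 7 of the 29 (24.1%), namely Atg3, Atg5, Bnip3, Ctsd, Gaa, Lamp1 and Mcoln1. It was present in 6.42% of all 33469 promoters of the same length and in 8.88% of the 9226 promoters of genes measured in both comparisons. At least 2 copies were found in 4 members (Atg3, Ctsd, Lamp1 and Mcoln1), or 13.8% of the 29. The share was 0.520% of all promoters and 0.910% of those of genes measured in both comparisons. Base composition moved with this, with a median GC content of 62.3% in the members, 60% in measured genes and 51.7% in all promoters. Its part in the count was not tested. The element is one of lysosomal genes and the list was chosen to hold such genes, so the share says nothing about these arrays.

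The promoters of Lamp1, Ctsd and Mcoln1 are shown because they hold several copies and those genes stood within the error of normal soleus after denervation in the reported setting. Atg3, with 2 copies and a fold of 0.03, met the same description and is not shown. The Bnip3 promoter is shown because it holds a copy in a gene that was lower by over 2-fold. Capitals mark CACGTG.
Lamp1, chr16:83075014-83075313, strand minus: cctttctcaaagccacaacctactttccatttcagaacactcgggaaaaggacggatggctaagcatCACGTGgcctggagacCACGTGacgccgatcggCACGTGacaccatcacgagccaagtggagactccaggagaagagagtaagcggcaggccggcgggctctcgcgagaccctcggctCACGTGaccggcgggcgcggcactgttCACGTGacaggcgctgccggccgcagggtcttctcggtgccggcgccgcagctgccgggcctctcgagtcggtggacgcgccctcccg
Ctsd, chr1:206968772-206969071, strand minus: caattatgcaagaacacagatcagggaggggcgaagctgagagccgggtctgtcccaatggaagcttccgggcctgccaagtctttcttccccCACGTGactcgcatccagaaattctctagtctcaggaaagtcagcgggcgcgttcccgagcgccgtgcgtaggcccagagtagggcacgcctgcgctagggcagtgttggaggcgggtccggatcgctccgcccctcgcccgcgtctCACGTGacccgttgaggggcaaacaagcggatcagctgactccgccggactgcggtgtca
Mcoln1, chr12:6358008-6358307, strand plus: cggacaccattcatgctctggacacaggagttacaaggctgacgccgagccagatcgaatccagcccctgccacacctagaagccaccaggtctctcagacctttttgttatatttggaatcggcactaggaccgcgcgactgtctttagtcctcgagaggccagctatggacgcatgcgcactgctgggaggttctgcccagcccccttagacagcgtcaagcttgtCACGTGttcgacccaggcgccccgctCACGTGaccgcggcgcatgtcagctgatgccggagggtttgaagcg
Bnip3, chr1:203154913-203155212, strand minus: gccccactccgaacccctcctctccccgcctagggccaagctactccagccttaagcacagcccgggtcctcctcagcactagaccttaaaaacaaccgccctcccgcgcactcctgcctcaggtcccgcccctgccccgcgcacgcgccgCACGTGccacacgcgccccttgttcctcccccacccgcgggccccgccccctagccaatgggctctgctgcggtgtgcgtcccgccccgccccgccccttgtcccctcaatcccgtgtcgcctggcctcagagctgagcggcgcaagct

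Lamp1 held 5 copies, beginning at positions -183, -167, -150, -65 and -38 from the start site, and no promoter of the table held more. Ctsd held copies at -157 and -10, Mcoln1 at -22 and 4, and Bnip3 at -99. The 7 genes with the motif had denervation folds from -1.64 (Bnip3) and -0.59 (Gaa) to 0.03 (Atg3). With the authors' values Atg3 stood at 0.28 and Atg5 at 0.25, and with quantile normalization Ctsd stood at 0.25, all above the error. The authors' values raise the median of all genes by 0.24, about as much as Atg3 and Atg5 moved, and quantile normalization raises it by 0.07. Ctsd was not alone in moving further than that. Under quantile normalization 12 member folds, over both comparisons, moved by more than their error, and Gabarap went from 0.15 to 0.56 after denervation. The other 22 promoters, which had no CACGTG in this window, belong to genes with folds from -1.67 (Wipi1) to 1.03 (Ctsk), and to Atg4b and Gla, which have no fold. The forkhead letters GTAAACA, searched on both strands for the FoxO factors of muscle wasting and with no overlap with the first motif, were in 0 of the 29 promoters, in 3.78% of all promoters and in 2.46% of those of genes measured in both comparisons. A match here is a run of letters and not a measured binding site.

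Further genes of the pathway were taken as 143 genes in 8 lists, of which 119 were measured after denervation. Of these 9 reached 2-fold on the high side (7.56%, beside 8.73% of all genes) and 5 on the low side (4.20%, beside 13.4%), with a median of 0.09. On an array where a gene was below background its fold enters as a bound, which applied to 3 of these genes. Of 30 other lysosomal hydrolases 24 stood above 0 (median 0.43, between 0.29 and 0.67 under the alternatives), where 51.2% of all genes did. The 17 genes of lysosomal membrane, transport and sorting had a median of 0.44. The fibroblast and tendon markers (median 0.88, 10 of 10 above 0) and fat cell markers (median 2.68, 5 of 5 above 0) were higher in the same array, and their part in the values of these lists was not tested, nor was any difference between lists. A median of 0.20 was found for 16 subunits of the acidifying vacuolar ATPase. Medians were -0.13 for 13 initiation and membrane supply genes, -0.02 for 12 selective receptors, -0.10 for 10 genes of maturation and fusion and -0.22 for 16 genes of mTORC1, AMPK and FoxO control. The 5 further conjugation and delipidation genes had none past 2-fold.

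The highest of the wider genes after denervation came from several of the lists. Stbd1, which tethers glycogen to autophagosomes, had 15.1 in denervated soleus and 3.17 in normal soleus (2.25 ± 0.20). Sesn3, a stress sensor upstream of mTORC1, had 0.688 in denervated soleus and 0.155 in normal soleus (2.15 ± 0.21). Sort1, a sorting receptor for lysosomal proteins, stood at 1.75 ± 0.21 and at 2.46 on its other probe. The sialic acid exporter Slc17a5 was at 1.40 ± 0.21, the p53-induced autophagy factor Tp53inp1 at 1.37 ± 0.21 and the ATPase subunit Atp6v0e2 at 1.22 ± 0.21 (0.87 with normexp background). The remaining higher genes, named after their values were seen, were Vmp1 (1.15), Gusb (1.08) and Manba (1.04), all below 1 with normexp background (0.98, 0.72 and 0.90).

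The lowest of the wider genes also came from several of the lists, in which 4.20% were lower by 2-fold, beside 13.4% of all genes. Optn, a receptor for ubiquitin-tagged cargo, had 1.93 in denervated soleus and 5.51 in normal soleus (-1.51 ± 0.20, and -1.44 and -0.88 on other probes). Fyco1, which links autophagosomes to a motor protein, stood at -1.40 ± 0.21. Retreg1, a receptor for pieces of the endoplasmic reticulum, was at -1.28 ± 0.20 and -1.78 on its probes. Nrbf2, a part of the lipid kinase complex, was at -1.12 ± 0.20 (-0.88 with the authors' values). Phb2, a prohibitin of the inner mitochondrial membrane, had 2.92 in denervated soleus and 5.85 in normal soleus, on the 2-fold line and inside it under 3 alternatives. The AMPK subunit Prkaa1 was at -0.96 ± 0.22 on a dim probe, with 0.0968 in denervated soleus and 0.189 in normal soleus.

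In plantaris 5 of 118 wider genes reached 2-fold above soleus (4.24%, beside 5.71% of all genes). None lay as far below it, where 6.11% of all genes did, and the median of the wider genes was 0.08. The GTPase Rragd, which signals amino acids to mTORC1, had 3.84 in plantaris and 1.30 in soleus (1.56 ± 0.20). Sort1 stood at 1.53 ± 0.21, the AMPK subunit Prkaa2 at 1.30 ± 0.20, Stbd1 at 1.24 ± 0.20 and Atg101, a part of the Ulk1 complex, at 1.17 ± 0.20. The membrane lipid scramblase Tmem41b was just inside 2-fold at 0.94, and just past it when arrays were centred on their median. The lowest were Prkaa1 (-0.86, on a dim probe), the lysosomal enzymes Pla2g15 (-0.85), Arsa (-0.81) and Lgmn (-0.80), Atp6ap2 (-0.72) and Retreg1 (-0.69). Of the wider lists, initiation and membrane supply had the highest median there, 0.44. In it 11 of 13 genes stood above 0, where 52.1% of all genes did. The 5 initiation and nucleation genes among the members went the other way, with a median of -0.31 and 2 of 5 above 0. Macrophage markers lay low in plantaris (12 of 13 below 0, median -0.56), and their part in the values of the lysosomal enzymes was not tested.

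**Figure D4:**
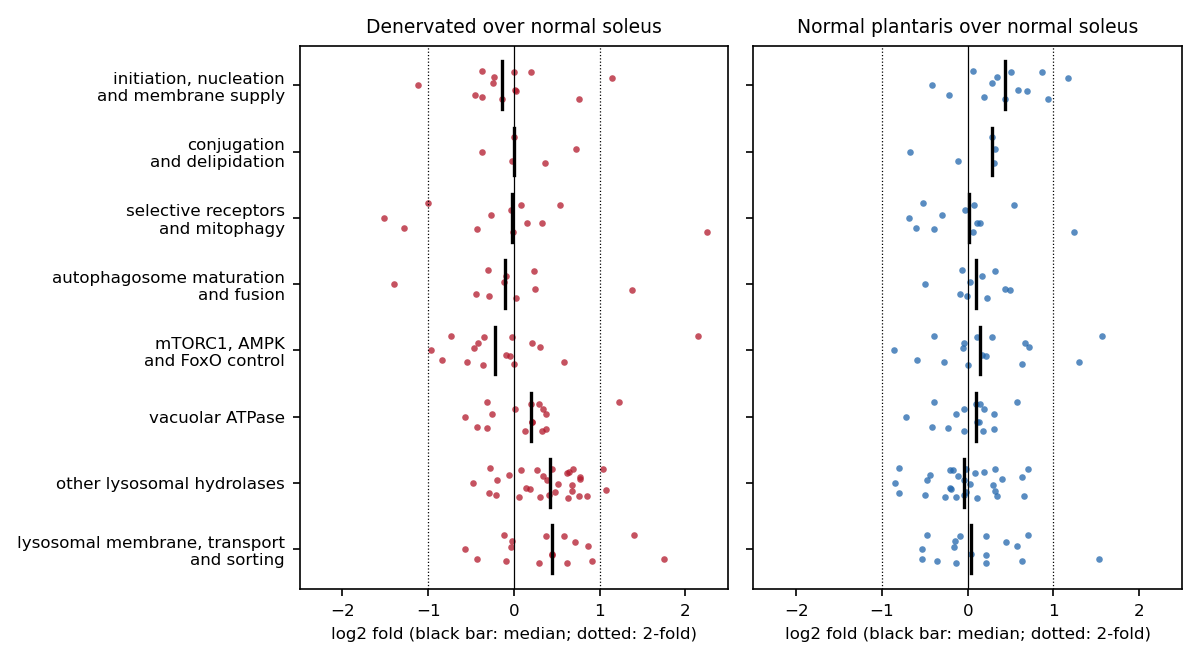
Log2 folds of the further pathway genes in 8 lists, for denervated over normal soleus on the left and normal plantaris over normal soleus on the right. Each point is a gene, black bars are list medians and dotted lines mark 2-fold. After denervation the lower rows, of lysosomal hydrolases and lysosomal membrane genes, centre at 0.43 and 0.44, to the right of 0.

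The muscles carried the marks of their labels. Over all genes 8.73% were at least 2-fold higher and 13.4% lower in denervated soleus, and 5.71% and 6.11% in plantaris. All 6 genes of the denervation response, among them the acetylcholine receptor subunit Chrng (4.72), were at least 2-fold higher in denervated soleus, although Ncam1 (1.09) stood at 0.58 with normexp background. All 7 slow fibre markers were at least 2-fold lower in plantaris and 8 of 9 fast fibre markers at least 2-fold higher. In denervated soleus 6 of 7 slow fibre markers were at least 2-fold lower (from -2.24 for Myl2 to -0.60 for Tnnt1), while 4 of 9 fast fibre markers were at least 2-fold higher (median 0.41, from -0.85 for Atp2a1 to 6.02 for Pvalb). General muscle markers were lower in denervated soleus, from -0.18 for Mb to -2.44 for Acta1 over 4 genes, and their part in the values of Bnip3, Wipi1 and Ulk1 was not tested. In plantaris the same 4 genes lay between -0.02 and 0.97.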

How the data were processed

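Per the file headers, the arrays were 1-colour Agilent arrays read with Agilent Feature Extraction version 10.10.1.1. The deposited processed signal is a background-subtracted, detrended intensity with no scaling between arrays. Other columns hold flags of 0 or 1, per the file headers. The authors' deposited value table is that intensity times 1 factor per array (1.41 for denervated soleus, 1.80 for plantaris, 1.60 for normal soleus). The labels do not say how the factors were chosen.

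The log2 processed signal was centred on the 75th percentile of each array's 58717 non-control spots. Spots with outlier flags (467 to 569 per array) were left out, none was saturated, and repeat spots were averaged. A probe was taken as well above background if 50 percent or more of its spots had that flag, as did 64.2% to 67.0% of 30367 probes. Accessions joined 18005 probes to a RefSeq symbol (GRCr8). A gene was compared if it was so on at least 1 of the 2 arrays. The number of arrays limits the precision. Members and lists were chosen with earlier results of these data known. All members are described. Of the wider genes those with the 6 largest folds per comparison and direction are named, among genes well above background on both arrays. The fold calculation was tested on simulated data with planted folds. Alternatives were normexp background, quantile normalization, centring on the median, the authors' values, genes above background on both arrays, no such filter, the mean over probes, and outlier spots kept. The normexp alternative (limma 3.58.1, R 4.3.3) used the median spot signal, where a mean signal had been planned. Python 3.11.15, pandas 2.3.3 and numpy 2.4.6 were used.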

Additional observations from a re-analysis of the deposited data

How the results depend on the processing

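With 8 alternatives, 465 of 512 member folds moved by no more than their error and 47 by more, 32 of these with the authors' values. Those values shift all genes, by 0.24 after denervation and -0.11 in plantaris. With them 5 members, not 2, were at least 2-fold higher after denervation, as Npc1 (1.15), Uvrag (1.12) and Lamp2 (1.01) passed the line, and the members' median was 0.41, which is 0.15 above that of all genes, as in the reported setting. Leaving out the filter on dim probes shifts all genes by -0.13 after denervation. Under quantile normalization Npc1 also passed 2-fold (1.02). Counts of members lower by 2-fold were 2 after denervation and 0 in plantaris in every alternative. After denervation 9 members changed sign in some alternative, and 3 did so in plantaris, none of them past 2-fold. The plantaris median turned to 0.04 when arrays were centred on their median. The authors' values also turned the balance of all genes after denervation, to 13.9% higher and 9.78% lower, and normexp background gave 3.24% and 8.84%. No paired analysis was possible because each group has 1 array, so no array could be left out either. Dim genes such as Uvrag and Lamp2 are limited by signal over background.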

Other observations

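The vacuolar ATPase, which acidifies the lysosome, had 11 of 16 subunits above 0 after denervation, where 51.2% of all genes were. At least 2-fold higher was 1 of the 16 (6.25%, beside 8.73% of all genes), and the subunits ran from -0.56 for Atp6v1b2 to 1.22 for Atp6v0e2. Of 16 genes that control autophagy through mTORC1, AMPK or FoxO factors 4 stood above 0 in denervated soleus, beside the 51.2% of all genes, and 1 had only a bound. Sesn3 alone was 2-fold apart (6.25% of the list, beside 8.73% of all genes higher and 13.4% lower). The 2 catalytic AMPK subunits differed in plantaris, where Prkaa2 stood at 1.30 ± 0.20 and Prkaa1 at -0.86 ± 0.23. Prkaa1 was read on a dim probe, with 0.104 in plantaris and 0.189 in normal soleus. Stbd1 had 15.1 in denervated soleus, 7.47 in plantaris and 3.17 in normal soleus.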
